A study of Homo sapiens with 8 samples.

Results

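HIF-1β binding was examined at 6 genes, grouped as basic helix-loop-helix (bHLH) repressors and antagonists of MYC. They are BHLHE40, BHLHE41, MXI1, MXD1 and MNT, together with MAX, the partner for which MYC and its antagonists compete. They were taken by name from the 20163 protein-coding genes annotated on the main chromosomes, and all peaks overlapping the gene body or 50 kb on either side of it were collected. The peaks came from ChIP-seq with an antibody to HIF-1β in PC-3 prostate, T47D breast, A549 lung and HCT-116 colorectal cancer cells, which are established cell lines, all incubated in 0.5% oxygen for 16 h. Each line had 2 replicates, numbered 1 and 2 for PC-3 and T47D and 2 and 3 for A549 and HCT-116. Normoxic cells and control libraries were not analysed here, so the values describe occupancy in hypoxia and not its induction. The labels do not state that replicates were separate cultures, so the spread between them may be technical. Each list gave peak intervals on GRCh37 (hg19) and a MACS score, and held between 1042 peaks (PC-3 replicate 1) and 3790 peaks (HCT-116 replicate 2). No reads were analysed here and the sequencing depth is unknown, so a peak was placed by its rank within its own library and scores were not compared between lines. Where peaks of the 2 replicates of a line overlapped, their union was counted as a site of that line. Peak lists hold no expression, so the identity of the cell lines could not be checked against marker genes.

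HIF-1β (ARNT) is the subunit that HIF-1α and HIF-2α need in order to bind DNA, and it also pairs with other bHLH-PAS proteins, so a peak does not say which partner was present. BHLHE40 and BHLHE41 (also called DEC1 and DEC2) are transcriptional repressors that bind the E-box CACGTG, and they are known for hypoxic induction and for dampening the circadian clock. MAX is the obligate partner of MYC. MXI1, MXD1 and MNT compete with MYC for MAX and recruit SIN3 co-repressors to E-boxes, which opposes MYC. The HIF core sequence, ACGTG or GCGTG, shares its letters with the E-box, since every CACGTG contains ACGTG.

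The stretches below lie at the centre of the interval common to all peaks of a region and are read 5′ to 3′ on the plus strand of GRCh37, with every ACGTG or GCGTG of either strand in capitals (CACGT or CACGC where it lies on the minus strand). The first group shows regions bound in most libraries, from BHLHE40, BHLHE41 and MXI1.

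BHLHE40 upstream region, chr3:5020568-5020767: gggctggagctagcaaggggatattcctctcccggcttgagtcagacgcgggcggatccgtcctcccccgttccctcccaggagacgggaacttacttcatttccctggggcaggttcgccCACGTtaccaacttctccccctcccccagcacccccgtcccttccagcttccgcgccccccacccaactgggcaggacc
BHLHE40 downstream region, chr3:5028511-5028710: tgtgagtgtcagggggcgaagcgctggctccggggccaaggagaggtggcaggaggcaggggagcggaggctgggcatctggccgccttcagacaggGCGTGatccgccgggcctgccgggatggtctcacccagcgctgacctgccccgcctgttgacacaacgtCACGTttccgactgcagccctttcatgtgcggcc
BHLHE41 upstream region, chr12:26278899-26279098: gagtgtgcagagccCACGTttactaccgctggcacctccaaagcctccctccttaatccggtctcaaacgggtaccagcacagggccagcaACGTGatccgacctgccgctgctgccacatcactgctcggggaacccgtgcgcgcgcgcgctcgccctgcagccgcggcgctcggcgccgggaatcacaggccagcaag
MXI1 region in intron 1, chr10:111969687-111969886: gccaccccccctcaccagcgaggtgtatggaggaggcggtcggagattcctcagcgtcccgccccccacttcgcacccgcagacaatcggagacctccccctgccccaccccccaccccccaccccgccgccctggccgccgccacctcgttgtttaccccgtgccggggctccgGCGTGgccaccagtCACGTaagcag

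The next group shows contrasts. The BHLHE40 region 44.0 kb downstream was a site in A549 cells and in no other line. The BHLHE41 region 10.5 kb downstream had 7 motif copies (each CACGTG counting on both strands) but no site. The highest-scoring region near MNT had no copy in its central 200 bp. The interval common to the peaks of this MNT region held 3 copies, and the whole region held 8.

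BHLHE40 far downstream region, chr3:5064996-5065195: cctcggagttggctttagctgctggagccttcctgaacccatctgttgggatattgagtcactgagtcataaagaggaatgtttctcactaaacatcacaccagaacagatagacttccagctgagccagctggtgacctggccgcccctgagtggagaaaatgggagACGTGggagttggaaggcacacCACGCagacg
BHLHE41 downstream region, chr12:26267383-26267582: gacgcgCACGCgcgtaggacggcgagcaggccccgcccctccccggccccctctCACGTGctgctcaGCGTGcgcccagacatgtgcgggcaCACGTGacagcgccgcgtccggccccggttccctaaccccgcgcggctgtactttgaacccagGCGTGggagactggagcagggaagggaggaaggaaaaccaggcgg
MNT region in SGSM2, chr17:2263016-2263215: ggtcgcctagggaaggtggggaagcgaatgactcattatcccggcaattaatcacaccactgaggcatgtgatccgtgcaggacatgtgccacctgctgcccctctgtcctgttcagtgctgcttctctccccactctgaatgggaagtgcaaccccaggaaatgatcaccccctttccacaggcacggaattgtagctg

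The region downstream of MNT at TSR1 lies over an exon and is shown by 30 bases around a single motif.

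Region downstream of MNT, at TSR1, chr17:2239720-2239749: atgccgcagcgcGCGTGtacggagtcagca

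HIF-1β sites were found at 5 of the 6 genes, and the 2 with a site in every line were BHLHE40 and MXI1. Of the 6 genes, 5 had a site in PC-3 cells (BHLHE40, BHLHE41, MXI1, MAX and MNT), against 10.1% of all protein-coding genes under the same rule. In HCT-116 cells the same 5 genes had a site, against a background of 19.7%. In T47D cells 4 genes had a site (all of these but BHLHE41), against 22.0%, and in A549 cells BHLHE40 and MXI1 had a site, against 8.64%. A site in all 4 lines, as at BHLHE40 and MXI1, was found for 3.74% of all genes. MXD1 had a site in no line, as did 67.4% of all genes, although every one of the 6 windows held at least 1 peak whereas 46.1% of windows of all genes held none. The windows of the 6 genes were between 105008 bp and 196522 bp long, and the median window of all genes was 127219 bp. In total, 69 peaks fell into 17 merged regions, 13 of which were a site in at least 1 line. The sites numbered 7 in PC-3, 6 in T47D, 5 in A549 and 10 in HCT-116 cells.

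**Figure D1:**
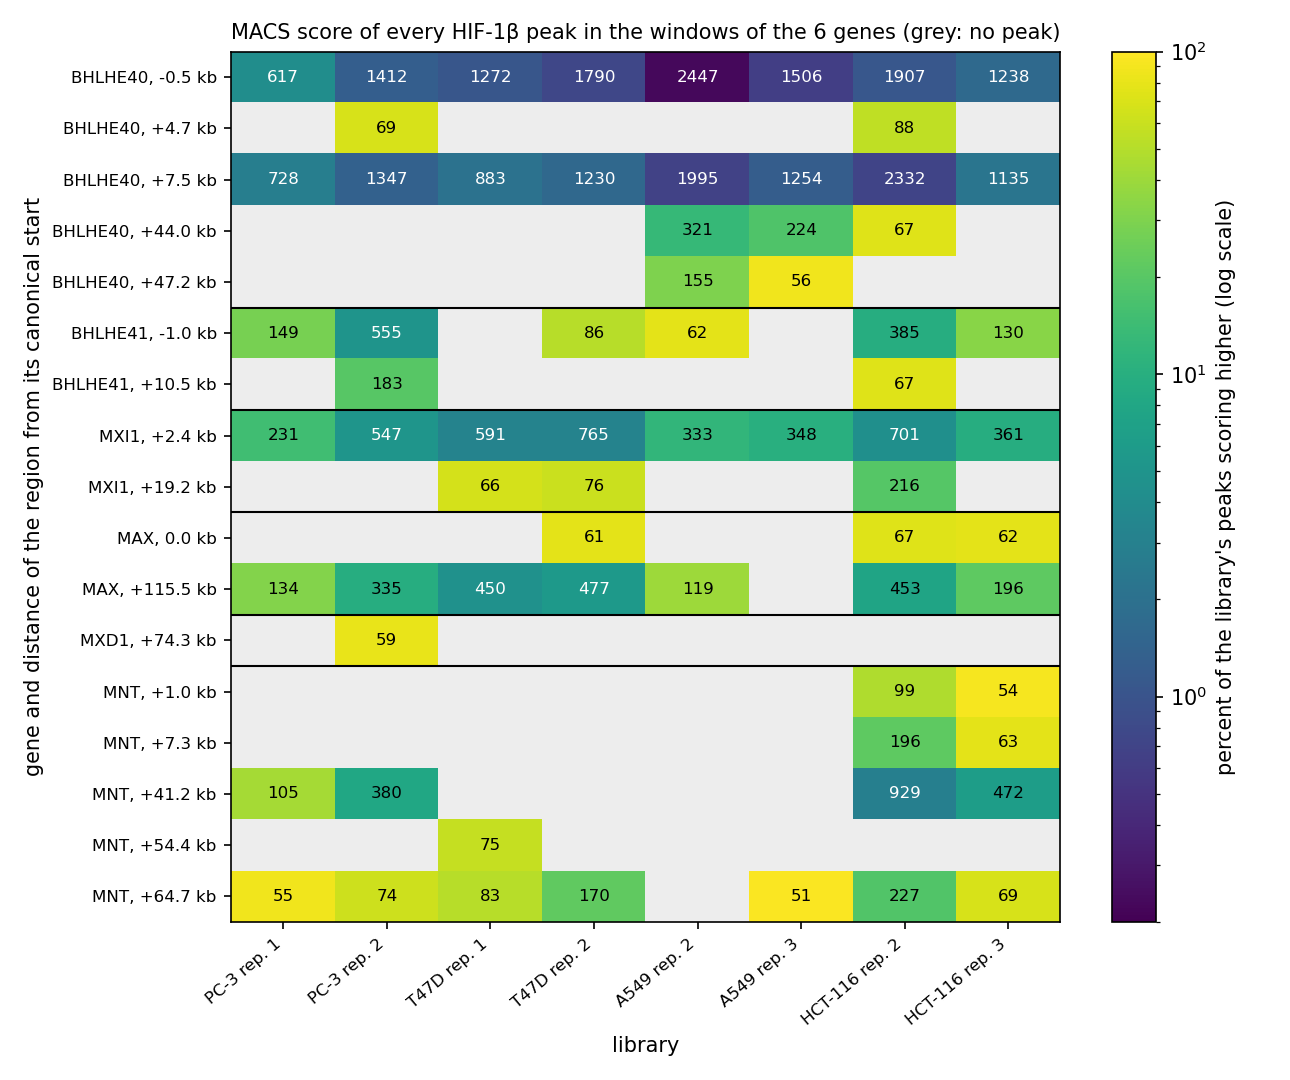
Each row is a merged region with its distance in kb from the canonical transcription start of the gene, each column is a library, the printed number is the MACS score and the colour is the percent of peaks of that library that score higher, on a log scale. The regions 0.5 kb upstream and 7.5 kb downstream of the BHLHE40 start have scores of at least 617 in all 8 libraries, and MXD1 has a single peak.

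BHLHE40 (ENSG00000134107, chromosome 3, body 5021122 to 5027008, plus strand) was occupied in all 8 libraries. The promoter region, at 5018961 to 5022656, spanned the start and was centred 455 bp upstream of it. Its scores were 617 and 1412 in PC-3 replicates 1 and 2, and 1272 and 1790 in T47D replicates 1 and 2. They were 2447 and 1506 in A549 replicates 2 and 3, and 1907 and 1238 in HCT-116 replicates 2 and 3. These scores placed the peak between rank 5 of 1768 (A549 replicate 2) and rank 45 of 1042 (PC-3 replicate 1). No library had more than 4.22% of its peaks above it. The peaks here were broad, at 1857 to 3565 bp, and at most 5.98% of the peaks of the same library were wider.

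A second region, from 5027128 to 5029470 and thus starting 120 bp beyond the annotated end of BHLHE40, was also a site in every line. Its scores were 728 and 1347 in PC-3, 883 and 1230 in T47D, 1995 and 1254 in A549 and 2332 and 1135 in HCT-116 replicates, in the same order. Ranks ran from 13 to 64, and the region scored above the promoter in PC-3 replicate 1 and HCT-116 replicate 2 but below it in the other 6 libraries. Which of both regions scored higher thus differed between replicates of PC-3 and of HCT-116. With more than 1 site in every line, BHLHE40 belonged to a small share of genes, since at least 2 sites were found for 1.13% of all genes in PC-3, 4.36% in T47D, 1.26% in A549 and 3.46% in HCT-116 cells. MXI1 in T47D, and MNT in PC-3 and HCT-116, and MAX in HCT-116 cells also had at least 2 sites.

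Farther downstream, BHLHE40 had sites in A549 cells that no other line shared. A region from 5064557 to 5065754, 44.0 kb from the start, scored 321 and 224 in A549 replicates 2 and 3 (ranks 227 and 233) and 67.0 in HCT-116 replicate 2 (rank 2804 of 3790), with no peak in the other 5 libraries. The next region, from 5067646 to 5069062, scored 155 and 55.8 in A549 replicates 2 and 3 and was found in no other library. BHLHE40 was the nearest protein-coding gene by transcription start for both. Whether the lines differ at single regions was not tested. Between the strong regions, a weak peak over the 3′ UTR in exon 5, at 5025331 to 5026405, appeared in PC-3 replicate 2 (68.7) and HCT-116 replicate 2 (87.7) only, so it was a site in no line.

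**Figure D2:**
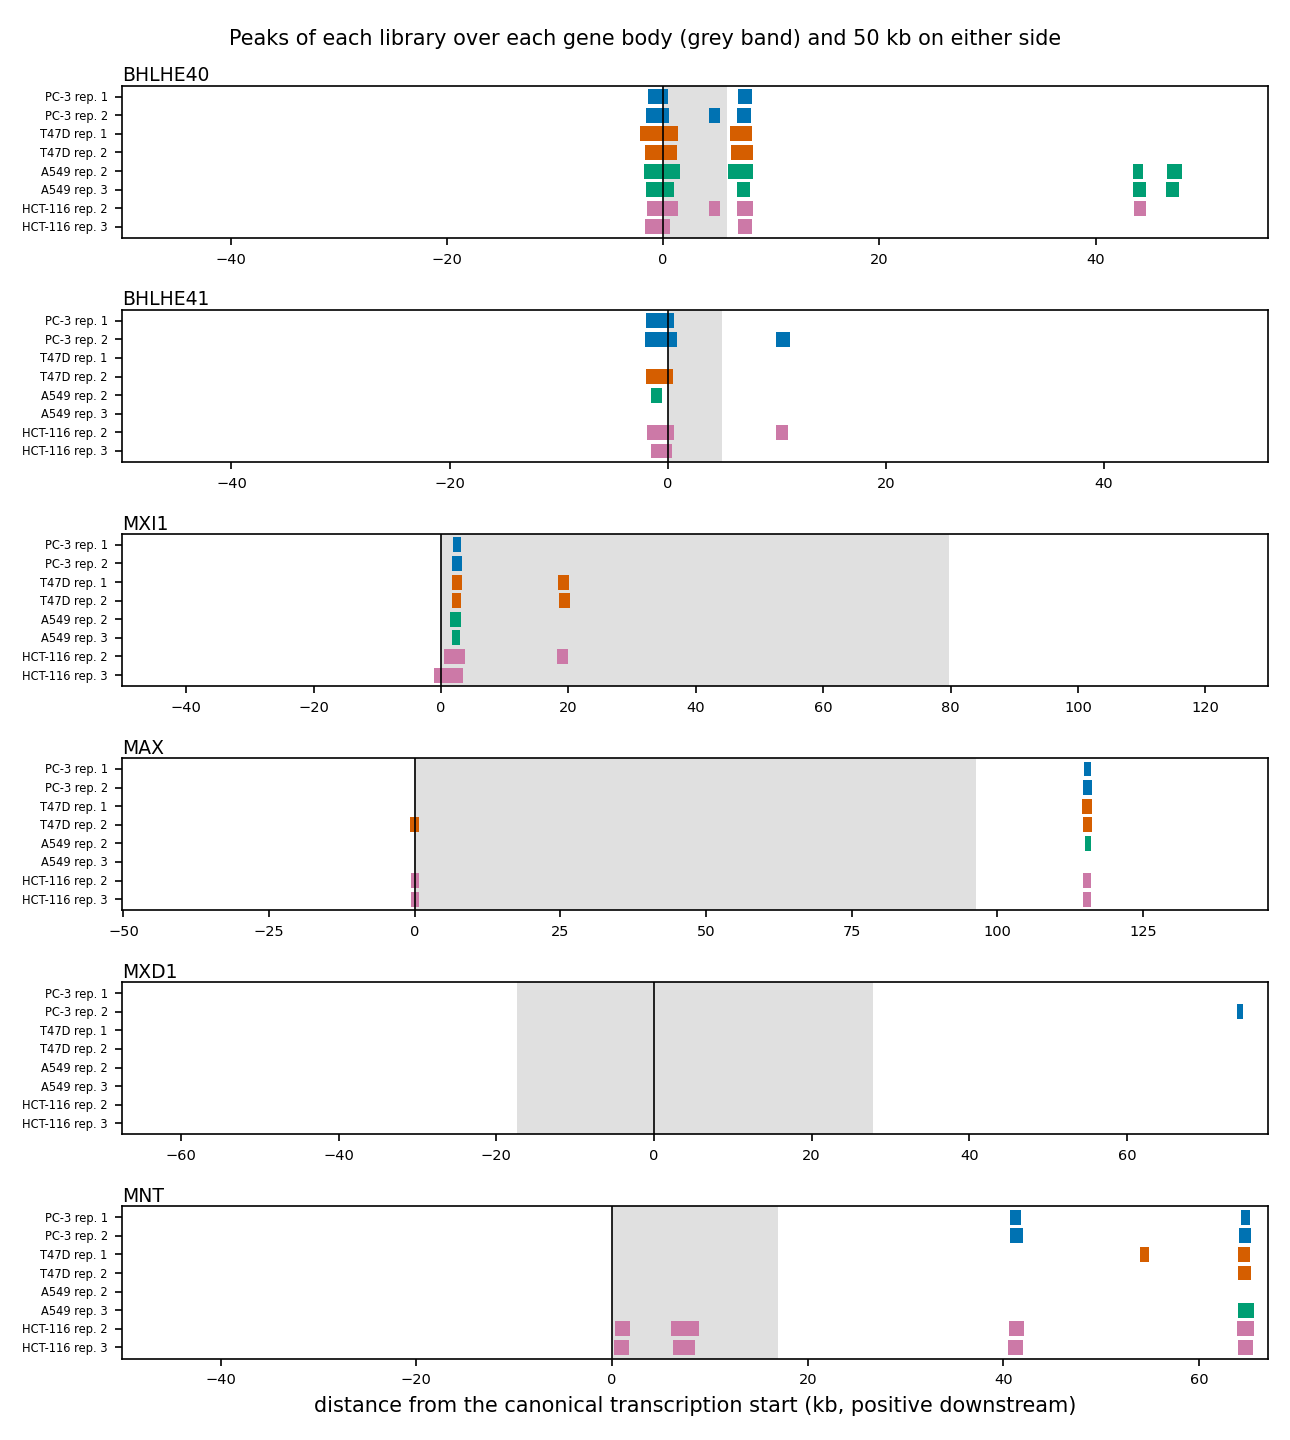
For each gene, coloured bars are the peaks of the 8 libraries (rows) by distance in kb from the canonical transcription start, which is the vertical line, and the grey band is the gene body. Most peaks of BHLHE40, BHLHE41 and MXI1 lie within 10.5 kb of the start, with further peaks at 44.0 and 47.2 kb of BHLHE40 and 19.2 kb of MXI1, while those near MAX and MNT lie mostly beyond the gene end.

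BHLHE41 (ENSG00000123095, chromosome 12, body 26272963 to 26277970, minus strand), the closest relative of BHLHE40, was occupied in fewer libraries and at lower ranks. The region from 26277127 to 26280091 covered the start and was centred 1028 bp upstream of it. It scored 149 and 555 in PC-3 replicates 1 and 2 and 385 and 130 in HCT-116 replicates 2 and 3. T47D replicate 2 had a score of 86.3 (rank 1503 of 2910) and A549 replicate 2 had 62.4 (rank 1366 of 1768), and the other replicate of each had no peak. In PC-3 and HCT-116 cells 4.98% to 33.5% of the peaks of a library scored higher, against 51.6% and 77.2% in the single T47D and A549 libraries, where the region was not a site. Absence in a list means only that no peak passed the score limit there. A further region, from 26266794 to 26268071, scored 183 in PC-3 replicate 2 and 67.1 in HCT-116 replicate 2 and was matched by neither partner replicate. The nearest annotated start to it was that of SSPN, 7442 bp away.

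MXI1 (ENSG00000119950, chromosome 10, body 111967363 to 112047123, plus strand) had a region in all 8 libraries, from 111966250 to 111971111. The common interval was centred in intron 1, 2423 bp downstream of the canonical start and 203 bp from the start of another coding transcript. Scores were 231 and 547 in PC-3, 591 and 765 in T47D, 333 and 348 in A549 (replicates 2 and 3) and 701 and 361 in HCT-116 (replicates 2 and 3). T47D replicates ranked it 99 and 94, and A549 replicates 214 and 129. In PC-3 it ranked 155 of 1042 and 147 of 2891, so nearly equal rank numbers gave 14.8% and 5.05% of peaks scoring higher. Only the peak of HCT-116 replicate 3, 4573 bp wide, reached the canonical start. A weaker region from 111985551 to 111987592, 19.2 kb downstream, lay over a cluster of alternative starts, with 22 coding transcripts of MXI1 starting within 2 kb. It was a site in T47D cells and in no other line, with scores of 66.4 and 76.1 (ranks 2073 and 1756). HCT-116 replicate 2 ranked it higher, at 742 of 3790 with a score of 216, but replicate 3 had no peak. The motif was dense there, with 50 copies of the HIF core in the whole region. Of these, 48 lay in the interval common to its peaks, which was 72.4% G and C. The 7 copies in the central 200 bp lay within a repeated G-rich stretch.

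MAX (ENSG00000125952, chromosome 14, body 65472892 to 65569413, minus strand) had weak peaks at its start. The region from 65568469 to 65570056 scored 67.1 and 62.3 in HCT-116 replicates 2 and 3 and 61.4 in T47D replicate 2, all within the lower-scoring part of their lists with at least 73.9% of peaks above them. The stronger region of this window lay 18.2 kb beyond the end of MAX, from 65452961 to 65454740, and was centred 132 bp from the start of FNTB, the β subunit of protein farnesyltransferase. It scored 134 and 335 in PC-3, 450 and 477 in T47D and 453 and 196 in HCT-116 replicates, and 119 in A549 replicate 2. T47D replicates ranked it 144 and 169. The MAX window counts as bound in PC-3 and T47D cells through this region alone.

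MNT (ENSG00000070444, chromosome 17, body 2287367 to 2304398, minus strand) had sites inside the gene in HCT-116 cells alone. A region from 2302488 to 2304125 in intron 1 scored 99.0 and 54.5 in HCT-116 replicates 2 and 3, and a region from 2295444 to 2298293 in intron 4 scored 196 and 63.1. Both were low in replicate 3 (ranks 1744 and 1476 of 1913). The strongest region of the window lay in intron 2 of SGSM2, from 2262285 to 2263931, 23.4 kb beyond the end of MNT. It scored 929 and 472 in HCT-116 and 104.5 and 380 in PC-3 replicates, with no peak in T47D or A549 cells. Ranks were 113 and 124 in HCT-116 cells. The last region, from 2238757 to 2240451, was centred 99 bp from the start of TSR1, a ribosome maturation factor, and also lay within 2 kb of the start of SGSM2. It was a site in PC-3 (55.4 and 73.8), T47D (82.6 and 170) and HCT-116 (227 and 69.4), and A549 replicate 3 had 51.1. A peak of T47D replicate 1 at 2249441 to 2250448 (75.3) had no match.

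MXD1 (ENSG00000059728, chromosome 2, body 70124820 to 70170077, plus strand) had a single peak in its window, in PC-3 replicate 2, from 70216180 to 70216996. It scored 59.1, ranked 2362 of 2891 and lay 46.1 kb beyond the gene end, closer to the start of ASPRV1 (27825 bp). The window edge was near: this peak and the TSR1 region of MNT, 46.9 kb beyond the gene end, lay just inside it. Just outside lay a PC-3 site 54.1 kb beyond the end of MXD1 (scores of 52.5 to 81.4) and a region 67.5 kb from MXD1 at GMCL1, which was a site in T47D and A549 cells.

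Within 2 kb of the canonical transcription start, BHLHE40 and MXI1 had a site in all 4 lines. The MXI1 site reached the start itself in HCT-116 cells alone. BHLHE41 had a site within 2 kb in PC-3 and HCT-116 cells, and MAX and MNT in HCT-116 cells only. The corresponding shares of all genes were 1.97% in PC-3, 6.65% in T47D, 1.46% in A549, 5.75% in HCT-116 and 0.828% in all 4 lines. The sites near MAX and MNT in PC-3 and T47D cells were thus at starts or introns of FNTB, SGSM2 and TSR1.

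**Figure D3:**
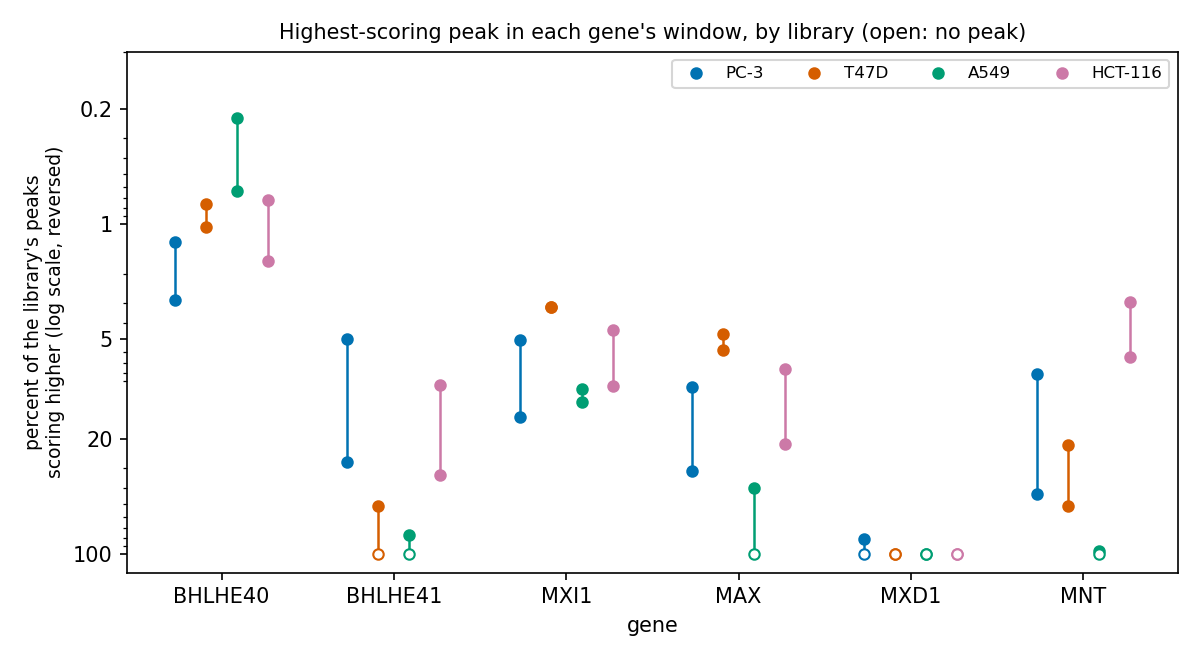
For each gene, each point is the highest-scoring peak of the window in a library, as the percent of peaks of that library that score higher (log scale, reversed so that strong peaks are at the top), with lines joining the 2 replicates of a cell line and open points for no peak. BHLHE40 lies at or below 2.88% in all 8 libraries, PC-3 replicate points lie apart at every gene, and MXD1 has points at 100% in 7 of 8 libraries.

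To ask whether lines differed in the rank of a gene by more than replicates did, the highest-scoring peak of each window was expressed as the percent of peaks in the library that scored higher, with 100 where there was none. For BHLHE40 this was 2.88 and 1.28 in PC-3, 1.05 and 0.756 in T47D, 0.226 and 0.630 in A549 and 0.712 and 1.67 in HCT-116 replicates. Both A549 values were lower than those of every other line, that is stronger, while the values of HCT-116 cells spanned those of T47D and overlapped those of PC-3 cells. Replicates differed by a mean of 0.813 points and libraries paired in any way by 0.921 points (exact permutation test over all ways to pair the 8 libraries, one-sided, p = 0.24, adjusted p = 0.52 over 10858 genes). For MXI1 the values were 14.8 and 5.05 in PC-3, 3.20 and 3.20 in T47D, 12.0 and 10.1 in A549 and 4.41 and 9.57 in HCT-116 replicates (exact permutation test, p = 0.24, adjusted p = 0.52). The T47D values were the strongest and did not overlap those of the other lines.

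For MNT, the values were 43.7 and 8.16 in PC-3, 51.0 and 21.9 in T47D, 100 and 96.5 in A549 and 2.96 and 6.43 in HCT-116 replicates. Replicates differed by a mean of 17.9 points and any pairing by 45.7 points. On this percent scale the unadjusted p was the smallest of the 6 genes (exact permutation test, p = 0.048, adjusted p = 0.34). Both HCT-116 values were the strongest and both A549 values the weakest. The order of the genes depended on the scale. With the rank number in place of the percent, p was 0.10 for MNT and 0.029 for MAX (exact permutation test, unadjusted). For MAX, the values were 31.6 and 9.72 in PC-3, 4.67 and 5.77 in T47D, 40.1 and 100 in A549 and 7.55 and 21.6 in HCT-116 replicates (exact permutation test, p = 0.10, adjusted p = 0.34). T47D was the strongest line at MAX, through the region at FNTB. For BHLHE41, the values were 27.9 and 4.98 in PC-3, 100 and 51.6 in T47D, 77.2 and 100 in A549 and 9.50 and 33.5 in HCT-116 replicates (exact permutation test, p = 0.18, adjusted p = 0.43). Those of PC-3 and HCT-116 cells overlapped, and both lay below those of T47D and A549 cells. For MXD1 the only value other than 100 was 81.7, in PC-3 replicate 2. With a single peak every pairing gives the same mean, so the test cannot decide for MXD1. In PC-3 cells, replicate 1 had the higher percent, that is the weaker rank, at all 6 genes, and its list held 1042 peaks against 2891 in replicate 2. HCT-116 replicate 3, with 1913 peaks against 3790 in replicate 2, also had the weaker rank at every gene with a peak there. Between the replicates of T47D and of A549 cells the direction varied by gene. The part of list length in the ranks was not tested. None of the 6 genes passed the threshold of 0.05 after adjustment, and neither did any other gene. The smallest p that the pairings allow in this exact permutation test is 0.0095, which 1.56% of the genes tested reached. Genes with peaks in few libraries cannot reach it. The smallest adjusted p of any gene was 0.34, and an adjusted p under 0.05 would need a far larger share of genes at such small p. Hence 0% of genes were called, with 10.0% at an unadjusted p under 0.05. A difference between lines was not shown for any of the 6, and neither was its absence.

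Of the 69 peaks in the windows, 56 overlapped a peak of the other replicate. All 7 in PC-3 replicate 1 and all 10 in HCT-116 replicate 3 were matched, which 95% exact binomial intervals put at no less than 59.0% and 69.2%, and over all peaks of these libraries 93.1% and 92.1% were matched. In the longer lists of the same lines, 7 of 10 peaks in PC-3 replicate 2 and 10 of 14 in HCT-116 replicate 2 were matched (70.0%, interval 34.8 to 93.3%, and 71.4%, interval 41.9 to 91.6%). Over all peaks of these 2 longer lists the matched share was 33.6% and 46.5%. In T47D replicates, 6 of 7 and 6 of 8 were matched (85.7% and 75.0%), against 67.6% and 71.3% of all peaks. In A549 replicates 2 and 3, 5 of 7 and 5 of 6 were matched (71.4% and 83.3%), against 59.0% and 82.0%. The intervals of the 6 genes' shares held the share of all peaks in every library but PC-3 replicate 2. The intervals cover counting error only and treat peaks as independent. Matched peaks of the 2 replicates are the same regions, so the intervals do not test the 6 genes against all peaks. Of the 13 unmatched peaks, 7 came from those 2 long lists, and all 16 peaks of the 2 strong BHLHE40 regions were matched.

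The HIF core occurred in each of the 13 regions that were a site, with 3 to 50 copies on both strands (a CACGTG counts on each strand). This differs little from all sites, of which 96.3% to 99.0% held it. In the central 200 bp, 11 of the 13 held it, against 66.5% of all T47D sites and up to 77.2% of all HCT-116 sites. The E-box CACGTG occurred in 8 of the 13 regions, against 24.2% of A549 sites and up to 35.9% of HCT-116 sites, but the regions differ in length and number of libraries merged, so the shares are not on an equal footing. Within the central 200 bp, 1 of the 13 held an E-box, that at the start of MAX, against 6.53% to 10.6% of all sites. The upstream region of BHLHE40 held 2 copies of CACGTG and that of BHLHE41 also held 2, outside the printed stretch. The BHLHE41 downstream region, a site in no line, held 2 copies of CACGTG within its central 200 bp.

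Among 9 other genes of the MYC, MAX and MLX network (MYC, MYCN, MYCL, MXD3, MXD4, MGA, MLX, MLXIP and MLXIPL), 2 had a site in any line, and 5 had no peak in any library. MYCL had a site 18.3 kb downstream of its start in T47D (scores 144 and 161), also found in PC-3 (56.8 and 181) and HCT-116 (382 and 220), and its centre in T47D cells was 113 bp from the start of TRIT1. MLXIPL, a glucose-responsive factor, had a site 46.0 kb downstream in T47D (76.1 and 75.3) and in HCT-116 (187 and 141), at the start of TBL2. No peak fell within 50 kb of MYC, MYCN, MXD3, MXD4 or MLX. The counts of 1 in PC-3, 2 in T47D, 0 in A549 and 2 in HCT-116 of 9 genes lie near the background shares given above.

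Of 10 other bHLH-Orange repressors, the family of BHLHE40 and BHLHE41 that also holds the Notch targets HES and HEY, 4 had a site in PC-3, 4 in T47D, 2 in A549 and 7 in HCT-116 cells. The shares of all genes were 10.1%, 22.0%, 8.64% and 19.7% in the same order, so this related list also lay above the background in every line. HES1 had a site in every line. In T47D it scored 344 and 637 over the HES1 start, in A549 311 and 135 and in HCT-116 156 and 56.6, both upstream of the start, and in PC-3 the site lay 4.72 kb downstream with 63.1 and 221. HES4 had a site over its start in HCT-116 (234 and 77.9). HEY2 had a site in every line 31.1 to 31.2 kb downstream, near the start of NCOA7, with scores from 52.3 to 174. The remaining sites lay nearer to starts of other genes, those of HES5 to TNFRSF14 and PRXL2B, of HES6 to the clock gene PER2, of HES7 to PER1, ALOX12B, ALOXE3 and TMEM107, of HES2 to ESPN and of HES3 to GPR153.

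**Figure D4:**
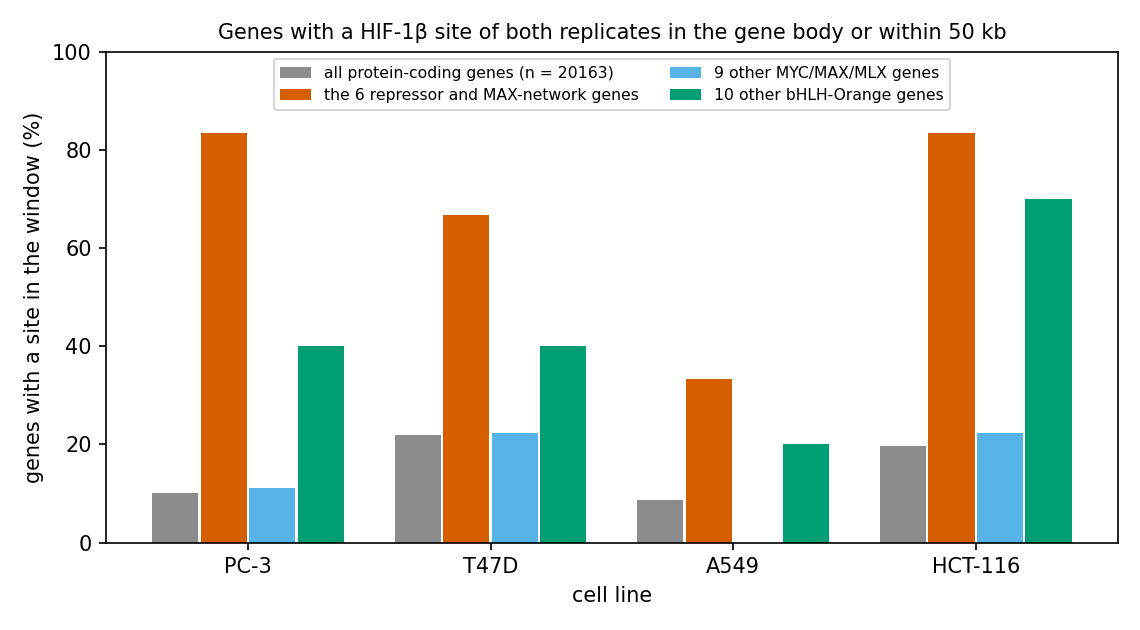
Bars give the percent of genes with a site of both replicates in the gene body or within 50 kb, for each line, in all protein-coding genes, the 6 genes, 9 other network genes and 10 other bHLH-Orange genes. The 6 genes reach 5 of 6 in PC-3 and HCT-116 cells, and the network genes stay near all genes, with 0 of 9 in A549 cells.

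The genes on other chromosomes whose windows ranked most like that of BHLHE40 over the 8 libraries were SLC2A3, a glucose transporter, FAM174B and ALDOA, a glycolytic aldolase, with mean absolute differences of 0.454, 0.489 and 0.601 points. Only 52 of the 10858 genes with a peak had a lower mean percent than BHLHE40, and neighbouring genes share peaks, so fewer separate regions lie behind this number. For MXI1, 157 genes had a lower mean, and the most similar windows were those of C19orf73, HRC and LIN7B (2.56 points each). For BHLHE41 they were MCAT, TSPO and TTLL12 (6.89 points each), and for MNT DNMT1, MYLK4 and WRNIP1 (5.49 to 5.75 points). Windows with equal values share the same peaks.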

How the data were processed

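The authors deposited 1 list of MACS peaks per library on GRCh37 (hg19), with a score for each peak whose scale is not described and whose lowest value lay between 50 and 50.09 in the 8 lists. The submitters' processing notes name Trim Galore 0.3.3, BWA 0.7.5a-r405, SAMtools 0.1.19, bedtools 2.17.0 and Picard 1.106. The MACS version is not given in the sources used here. The methods of the study also name the peak caller T-PIC. Whether the lists were filtered by it was not checked here. Peaks on the main chromosomes were used, and an overlap of 1 bp or more between replicates made a site.

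Gene bodies and starts came from GENCODE release 44 lifted to GRCh37, with the canonical transcript as the reference start. Distances run from the centre of the interval common to all peaks of a region. A rank is 1 plus the number of peaks of the library with a higher score. The rank test was an exact permutation test, one-sided, of the mean difference within lines over all ways to pair the 8 libraries, with Benjamini-Hochberg adjustment over 10858 genes. It was tested on simulated data first. Intervals are 95% exact binomial intervals. Python 3.11.15, NumPy 2.4.6, SciPy 1.17.1, pysam 0.24.0, samtools 1.23.1 and Matplotlib 3.10.9 were used.

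The 6 genes, the lists and the tests were chosen with earlier results of these data known. The text names the 6 genes, genes of both lists with a site, genes with a start within 2 kb of a site, and the 3 genes most like each gene by rank; genes nearest to other peaks are named outside this rule, after their values were seen. The genes most like MAX are not reported here. The alternatives were the overlap, score limits, a peak of either replicate, other windows, log10 scores and each replicate left out, and the rank number and a replicate block were added after seeing the data.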

Additional observations from a re-analysis of the deposited data

How the results depend on the processing

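Of 36 alternatives for the number of genes with a site, 34 stayed within 1.5 times the reported count, and of 36 for the number of sites, 29 did. In A549 cells, 5 genes and 8 sites were counted with a peak of either replicate, and 3 sites with 25 kb on each side, since the far downstream BHLHE40 sites then fall outside. With 200 kb on each side the sites numbered 12 in PC-3, 10 in T47D and 9 in A549 cells. In HCT-116 cells the sites fell from 10 to 6 with the higher-scoring 50% of each list and to 6 with scores of at least 100. When a replicate was left out and every peak of the other counted, genes with a site numbered 5 to 6 in PC-3, 4 to 5 in T47D, 3 to 4 in A549 and 5 in HCT-116 cells, and sites 7 to 10, 7 to 8, 6 to 7 and 10 to 14. The count of 4 genes in A549 cells came without replicate 3. The rank test called 0 genes under all 14 alternatives (exact permutation test). Adjusted p for the 5 genes other than MXD1 ranged from 0.23 to 0.99. Each alternative has few pairings for so many genes, so 0 calls says nothing about stability. MXD1 had no peak, and so no value, with 25 kb on each side, with the higher-scoring 50% of each list and without PC-3 replicate 2. PC-3 and T47D share replicate numbers 1 and 2, and A549 and HCT-116 share 2 and 3, but the labels do not say that a number marks a shared batch. The deviations of same-numbered libraries from their line means correlated across genes at 0.031 between PC-3 and T47D and at 0.0078 between A549 and HCT-116. A correlation across genes can miss a shift common to all genes, so these values do not exclude a shared batch. The numbers were not taken to pair the samples in the main test. With the replicate number as a block, added after seeing the data, libraries were permuted only within a number (exact permutation test, 24 ways, smallest p 0.042), and 0 genes had an adjusted p under 0.05 and 169 an unadjusted one. Adjusted p under the block was 0.68 for MXI1 and 0.55 for BHLHE40, BHLHE41, MAX and MNT (exact permutation test). The block cannot decide for MXD1 either. With so few ways the block says nothing about stability. Depth is unknown, so a missing peak is not evidence of no binding.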

Other observations

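Beyond the 50 kb windows, and up to 200 kb from the gene body, HIF-1β peaks lay around BHLHE41, MAX, MXD1, MNT and MXI1, among others. On the side of SSPN, the neighbour of BHLHE41, 5 peaks lay 70.2 to 149 kb from the BHLHE41 body, with scores of 50.3 to 69.2, and all 5 came from PC-3 replicate 2 alone. MAX had a site in PC-3 and T47D cells 123 kb from its body, on the upstream side, with scores from 73.4 to 488, and MAX was the nearest protein-coding gene by transcription start. Around MXD1, a region 143 kb beyond the body near PCBP1 was a site in PC-3, T47D and HCT-116 cells (scores 85.4 to 306), and a region 198 kb beyond it was a site in all 4 lines (174 to 884). A region 156 kb from MXD1, near the start of ANXA4, was a site in PC-3 cells, and another 163 kb away was a site in A549 cells (113 and 200). MNT had a site in HCT-116 cells 192 kb from its body, near the start of PAFAH1B1 (79.3 to 102). Around MXI1, 5 regions lay 111 to 199.8 kb beyond the body and were a site in no line, the highest score among them being 504 (rank 132 in its list).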
